A study of Mus musculus with 12 samples.

Results

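RNA levels in lens epithelial cells were compared between fibronectin conditional knockout (FNcKO) and wild type (WT) mice 48 h after surgery that takes out the fiber cells, as cataract surgery does in patients. The comparison used 6 of the 12 libraries of the series, chosen by their labels: 3 FNcKO and 3 WT libraries of 48 h. The other 6 libraries, 3 of each genotype, were taken directly after fiber cell removal (0 h) and entered the same fit. WT mice were C57BL/6. FNcKO mice had a background mixed from the strains C57BL/6, 129 and FVB/N, so that the effects of the fibronectin allele and of the strain background cannot be told apart. All mice were 2 months old, all lost the fiber mass through a cut in the cornea, and RNA came from the capsule with the cells that stayed attached to it. The promoter that drives the Cre recombinase, the exons deleted and the number of animals per library were not stated in the labels. The design text calls the replicates biological triplicates. The stated aim was to learn what fibronectin does in posterior capsular opacification, the clouding of the capsule that can follow cataract surgery.

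Fibronectin is a glycoprotein of the extracellular matrix. Cells assemble it into fibrils through integrins, chiefly the pair of the alpha 5 and beta 1 chains, and collagen fibrils and matricellular proteins are laid down on it. Lens epithelial cells make little of it at rest. After injury they turn on fibronectin, fibrillar collagens and smooth-muscle type contractile genes, a switch that transforming growth factor beta (TGF-beta) can drive and that gremlins, secreted antagonists of bone morphogenetic proteins (BMPs), can favour.

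The 48 h libraries held 8368160 to 9257172 counts. All 6 expressed lens genes: Pax6, a transcription factor that defines lens and eye epithelium, was at 393, 353 and 371 counts per 1e6 counts (CPM) in WT and 368, 402 and 294 in FNcKO. Crystallins, the structural proteins of lens fibers, took 1.79%, 7.43% and 5.93% of the counts in WT and 11.9%, 7.22% and 1.47% in FNcKO. Transcripts of other cells were present. The summed level of 11 pigment cell markers was 516, 464 and 211 CPM in WT and 104, 62.7 and 50.3 in FNcKO, without overlap. Summed macrophage markers stood at 667, 463 and 267 against 189.6, 281 and 411 CPM, neutrophil markers at 436, 96.3 and 80.1 against 60.4, 54.5 and 154, and photoreceptor markers at 1211, 3631 and 1907 against 3251, 316 and 1980.1, all with overlap. Xist, the RNA of the inactive X chromosome, was at 924, 4.95 and 356 CPM in WT and 500.1, 6.98 and 5.92 in FNcKO, and the Y-linked Ddx3y at 0.380, 46.5 and 28 against 38.3, 70.3 and 65.4. WT replicate 3 and FNcKO replicate 1 thus held both, and WT replicate 1 was the only 48 h library with Ddx3y near 0. The first principal component of the 48 h libraries, with 33.1% of the variance, did not separate the genotypes, and the second, with 27.5%, did so without overlap.

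At 48 h, 35 of 14560 tested genes (0.24%) differed between the genotypes at a Benjamini-Hochberg (BH) adjusted p under 0.05 by the quasi-likelihood test of edgeR, the threshold used throughout. Of these, 29 were lower in FNcKO (0.199% of the genes tested) and 6 were higher (0.0412%). The lower genes included a collagen and its crosslinking enzyme, a contractile gene, pigment cell genes, a run of Serpina3 genes and acute phase and complement genes. In 34 of the 35 the fold was 2 or more. At an unadjusted p under 0.05, 495 genes were lower (3.4%) and 301 higher (2.07%). Below, a gene that fell or rose is one past the threshold and lower or higher in FNcKO.

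**Figure D1:**
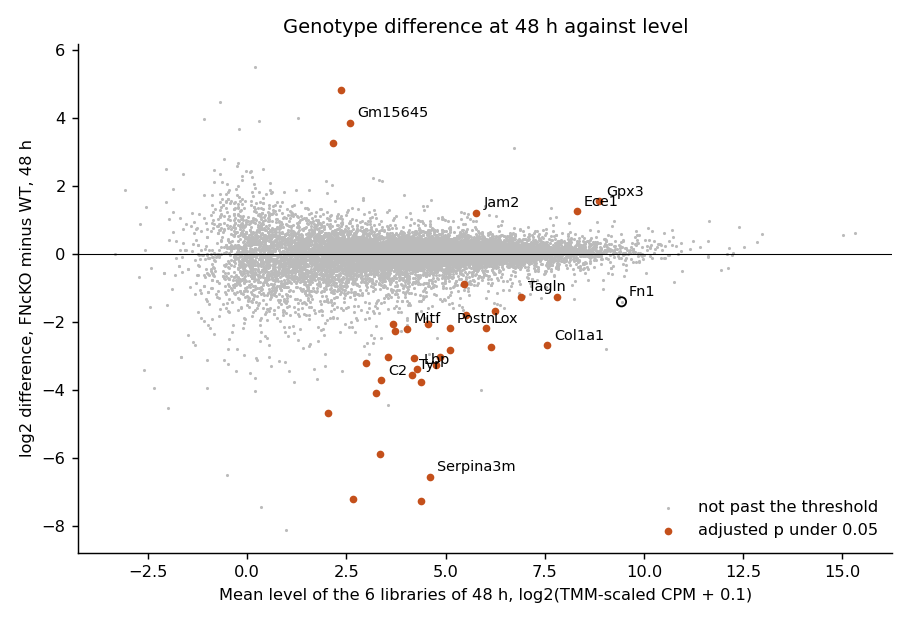
Each point is one of the 14560 tested genes, with the mean level of the 6 libraries of 48 h on the horizontal axis (log2 of TMM-scaled CPM plus 0.1) and the fitted log2 difference, FNcKO minus WT, on the vertical axis. The 35 genes past the threshold are orange, 29 of them below 0, and Fn1 is circled among the genes that did not pass.

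The number of calls depended on single libraries. It was 14 without WT replicate 1, 14 without WT replicate 2, 46 without WT replicate 3, 16 without FNcKO replicate 1, 10 without FNcKO replicate 2, 21 without FNcKO replicate 3 and 23 without WT 0 h replicate 1. Under every one of these 7 omissions, 10 genes kept their call: Serpina3m, Serpina3c, Serpina3f, Serpina3h, Gm9199, Lbp, C2, Lox, Bst1 and Gm15645. The other 25 lost it at least once. With the 48 h libraries alone 7 calls were made, for 6 of these 10 genes and for Sfn; C2 (adjusted p = 0.0752), Gm15645 (0.108), Lox (0.145) and Bst1 (0.17) lost theirs. Of the calls, 82.9% were lower in FNcKO. With libraries scaled by total counts this share was 96.43% of 28 calls. Just inside the threshold stood Gpx3 (adjusted p = 0.0498) and Sytl2 (0.0492). Just outside stood Serpina3g (0.0509), Col5a2 (0.0567), and the pigment gene Dct (0.0653), 3 genes chosen here after their values were seen.

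The targeted gene itself did not pass. Fn1, at chromosome 1, 71585473 to 71653234 in the mm10 build, was at 1514, 527 and 978 CPM in WT and 146, 297 and 687 in FNcKO. The lowest WT library lay below the highest FNcKO library. The fitted difference was log2 −1.42 (SE 0.52, adjusted p = 0.713). At 0 h it was at 18.9, 23 and 15.5 CPM in WT and 16.8, 9.8 and 8.31 in FNcKO. Counts were taken over the whole gene, so RNA from exons outside a deleted part, or from cells in which the allele was not deleted, is counted too, and these values do not check the knockout.

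No receptor of fibronectin passed. Over the 13 tested receptor genes the median log2 difference was 0.19, beside 0.01 over all tested genes. Itga5, the alpha chain that binds fibronectin most selectively, was at 144, 176 and 262 CPM in WT and 77.8, 263 and 277 in FNcKO (log2 0.09, SE 0.40). Itgb1, its beta partner, was at 1244, 711 and 1691 against 636, 1471 and 1263, and Itgav, the alpha chain of a second group of fibronectin receptors, at 395, 354 and 501 against 395, 516 and 515. These 3 overlapped between the genotypes. Sdc4, a syndecan that binds the heparin-binding region of fibronectin, did not overlap, with 661, 659 and 541 against 735, 800.2 and 858 CPM, but its adjusted p was 0.891. It was the only 1 of the 13 genes higher without overlap, while 2 were lower without overlap. Of all tested genes, 9.74% did not overlap in either direction, and 5.25% did not overlap and were lower.

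Of 32 tested genes of the interstitial matrix, 2 fell, Col1a1 and Lox, and none rose. Their median difference was log2 −0.35, and at an unadjusted p under 0.05, which 3.4% of all tested genes met in the lower direction, 10 were lower and none was higher. Col1a1 encodes the alpha 1 chain of type I collagen, the main fibrillar collagen of scars (chromosome 11, 94936270 to 94951856). It was at 524, 185 and 276 CPM in WT and 45.1, 50.2 and 56.5 in FNcKO. The 3 FNcKO libraries lay close together and below the lowest WT library, with a 6.49-fold lower fitted level (log2 −2.70, SE 0.41, BH-adjusted p = 0.0265). At 0 h its levels were 2.1, 4.69 and 5.06 CPM in WT and 9.49, 3.81 and 5.16 in FNcKO. Leaving out any one FNcKO library of 48 h ended the call, with an adjusted p of 0.0998, 0.133 and 0.0785 without replicates 1, 2 and 3. Its log2 difference was −2.35 (adjusted p = 0.11) with the summed leukocyte markers of each library in the model.

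Lox encodes lysyl oxidase, which crosslinks collagen and elastin (chromosome 18, 52516060 to 52529867). Its levels were 128, 104 and 87.8 CPM in WT and 14.9, 21.6 and 33.6 in FNcKO, so that every WT library was above every FNcKO library (log2 −2.19, SE 0.28, BH-adjusted p = 0.00375). At 0 h both genotypes were near 2 CPM, with 2.51, 2.65 and 2.05 against 2.9, 1.85 and 1.43. Postn, which encodes periostin, a matricellular protein that binds fibronectin and collagen, was at 69.7, 47.4 and 52.2 against 13, 15.9 and 8.03 CPM (log2 −2.20, SE 0.40, BH-adjusted p = 0.048). It was the only one of 17 matricellular genes past the threshold, and its call ended without any one of the 6 libraries of 48 h (highest adjusted p 0.178, without WT replicate 1). Tenascin C (Tnc) overlapped, with 1002, 404 and 1553 against 422, 1253 and 1215 CPM, and so did the TGF-beta induced gene Tgfbi, with 786, 589 and 1198 against 525, 886 and 876. Osteopontin (Spp1) was at 870.4, 697 and 459 against 149, 288 and 548 CPM (adjusted p = 0.804).

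Several collagens that did not pass showed libraries without overlap; those named here were chosen after their values were seen. Col5a2, a chain of the collagen that starts type I fibrils, was at 24.9, 25.7 and 16.5 CPM in WT and 5.7, 7.42 and 7.4 in FNcKO (log2 −1.71). Col1a2, the partner chain of Col1a1, was at 375, 344 and 378 against 242, 288 and 304, a much smaller difference (log2 −0.39, SE 0.18, adjusted p = 0.887). Col14a1 was at 5.13, 7.29 and 4.87 against 0.422, 1.2 and 1.27. Of the 32 matrix genes, 11 did not overlap, all lower in FNcKO, as did 5.25% of all tested genes in that direction. Among 26 genes of the basement membrane, which the lens capsule is made of, none passed, and 21 had a fitted value above 0 with a median of log2 0.27. Col4a1, its main collagen, was at 1417, 2733 and 4098 CPM in WT and 4573, 4307 and 1815 in FNcKO, and Lama1, a laminin chain, at 64, 60.6 and 140.5 against 102, 153 and 91.8, both with overlap.

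Of 21 contractile and cytoskeletal genes, 1 fell, Tagln, and none rose, beside 0.199% of all tested genes that fell. At an unadjusted p under 0.05, 3 were lower and none was higher, beside 3.4% of all tested genes lower. Without overlap 3 were lower and none was higher, beside 5.25% of all tested genes lower. The lowest fitted difference of the list was log2 −4.05, in a gene that did not pass. Tagln encodes transgelin, an actin-binding protein of smooth muscle that myofibroblasts turn on (chromosome 9, 45929628 to 45936058). Its levels were 157, 168 and 180.3 CPM in WT and 64.5, 64.3 and 81 in FNcKO, tight within each genotype and 2.41-fold apart (log2 −1.27, SE 0.21, BH-adjusted p = 0.0296). The call ended without any one of 5 of the 6 libraries of 48 h, FNcKO replicate 3 being the exception, with an adjusted p of up to 0.207 without FNcKO replicate 2. Acta2, the smooth muscle actin used to mark myofibroblasts, was at 584, 596 and 1453 CPM in WT and 446, 774 and 649.8 in FNcKO. WT replicate 3 stood high and the other WT libraries lay among the FNcKO libraries (log2 −0.49, adjusted p = 1). At 0 h Acta2 was already at 271, 160.4 and 161 against 178, 191 and 241 CPM.

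No gene of the TGF-beta list (26 tested, median log2 −0.08) or of the BMP and gremlin list (20 tested, median −0.04) passed. Tgfb2, a TGF-beta ligand gene, was at 623, 678 and 844 CPM in WT and 646, 731 and 603 in FNcKO. Grem1, which encodes gremlin-1, was at 1815, 584 and 359 CPM in WT and 109, 69.8 and 218 in FNcKO. Its groups did not overlap and WT replicate 1 stood far above the other libraries. The fitted difference was among the larger ones (log2 −2.80, SE 0.59), yet the adjusted p was 0.128. It passed with DESeq2 (adjusted p = 0.00266), with crystallin content in the model (0.0467) and without WT replicate 3 (0.0382). The difference shrank to log2 −1.84 without WT replicate 1 (adjusted p = 0.262), −1.91 with leukocyte content (0.428) and −1.46 with pigment content in the model (1). At 0 h Grem1 was at 2.21, 1.94 and 3.13 against 3.69, 1.61 and 2.58 CPM.

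**Figure D2:**
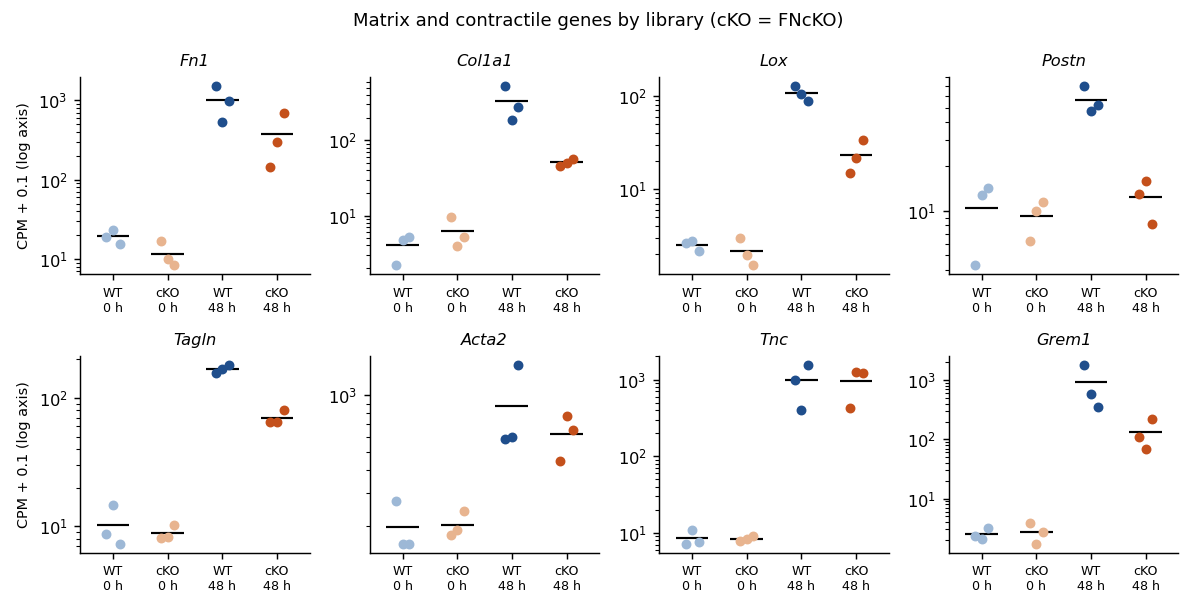
Levels of 8 genes in every library, as CPM plus 0.1 on log axes, with 3 libraries in each of the 4 groups and a bar at the arithmetic mean. At 48 h Col1a1, Lox, Postn and Tagln do not overlap between WT (dark blue) and FNcKO (orange) and passed the threshold; Grem1 does not overlap but did not pass; Fn1, Acta2 and Tnc overlap.

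Pigment cell genes formed the list with the lowest median. Melanocytes and the pigment epithelia of iris, ciliary body and retina, which lie next to the lens, make melanin with the enzymes tyrosinase (Tyr), Tyrp1 and Dct inside melanosomes, and Mitf is the transcription factor that turns these genes on. Of 11 tested genes, 4 fell in FNcKO, Tyr, Tyrp1, Mlana and Mitf, and none rose. The median difference of the list was log2 −2.75, and 8 did not overlap, all lower (of all tested genes, 5.25% did not overlap and were lower, and 9.74% did not overlap in either direction). In bulk RNA, fewer cells of a type and less RNA per cell cannot be told apart.

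Tyr was at 60.7, 20.2 and 16.7 CPM in WT and 5.17, 2.29 and 0.740 in FNcKO (log2 −3.57, SE 0.62, BH-adjusted p = 0.0442). Tyrp1 was at 149, 145 and 71.7 against 28.8, 18.6 and 6.97 (log2 −2.75, SE 0.43, BH-adjusted p = 0.0292). Mlana, a melanosome membrane protein, was at 26.2, 20.1 and 6.74 against 1.27, 0.764 and 1.06 (log2 −4.09, SE 0.66, BH-adjusted p = 0.0271). In each of these genes WT replicate 3 was the lowest WT library and still lay above every FNcKO library. Mitf was at 43.1, 22.7 and 13.6 against 6.23, 6.87 and 4.12 (log2 −2.20, SE 0.37, BH-adjusted p = 0.0316). Dct and Pmel, a melanosome fibril protein, missed the threshold with log2 differences of −4.01 and −2.94 (adjusted p = 0.0653 and 0.303), and were named after their values were seen. Rlbp1, which the pigment epithelium of the retina uses for the visual cycle, differed from these. It was at 12, 24.5 and 17.9 CPM in WT and 26.9, 10.9 and 27.3 in FNcKO, with overlap. Rpe65, which also serves the visual cycle, was at 0.475, 1.26 and 0.726 against 4.75, 0.873 and 0.106, with overlap. Most of these Rpe65 values lay near the limit that 3 counts set (0.285 to 0.327 CPM). Mlph encodes melanophilin, which ties melanosomes to their motor. It fell too, from 28.7, 62.9 and 21.5 to 11.8, 7.09 and 8.03 CPM (log2 −2.07, SE 0.38, BH-adjusted p = 0.0487), and was the only one of 236 tested genes within 20 Mb of Fn1 past the threshold at 48 h. The call of Mlph ended without any one library of 48 h except WT replicate 3.

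At 0 h none of the 11 pigment genes passed. Tyr was then at 5.11, 8.36 and 5.78 CPM in WT and 6.14, 5.77 and 5.3 in FNcKO, which overlapped, as did Mitf. Tyrp1 was at 57.2, 83.9 and 74.9 against 42.1, 50.9 and 42.1 CPM. Mlana was at 1.1, 5.5 and 1.56 against 0.559, 0.807 and 0.287. Both were lower in FNcKO without overlap. The sum of the list was 296, 369 and 243 against 222, 227 and 188 CPM, also without overlap. The 4 calls of 48 h depended on single libraries: none was made without WT replicate 1, without WT replicate 2 or without FNcKO replicate 2, 1 without FNcKO replicate 3, 2 without WT 0 h replicate 1 and 3 without FNcKO replicate 1, while 6 were made without WT replicate 3. With the summed pigment markers of each library in the model, a setting added after the data were seen, edgeR called none of the 14560 genes, with 330 at an unadjusted p under 0.05, and 33 of the 35 genes kept their direction. Col1a1 then had a log2 difference of −2.33, Lox −2.39 and Tagln −1.37, all with an adjusted p of 1, and Serpina3m −6.15 (adjusted p = 0.162). These markers differ between the genotypes at 48 h without overlap, so the covariate and the genotype share much of their variation.

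The starts of Tyr and Tyrp1 hold the same short element, shown because both genes fell together. AGTCATGTGCT, in capitals, is the longest stretch that the 250 bases before the starts of the 2 genes have in common (RefSeq, GRCm38.p6, the build mm10 names), and so was chosen from these sequences. It has the letters of the M-box, the site that Mitf is known to bind in melanocyte genes.
Tyr (chr7:87493517-87493545, minus strand): gaaaaagttAGTCATGTGCTttgcagaag
Tyrp1 (chr4:80834155-80834183, plus strand): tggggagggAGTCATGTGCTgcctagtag
It ends 13 bases before the RefSeq start of Tyr and 38 bases before that of Tyrp1. The deposited coordinates start Tyr further in, 114 bases after the element, and give the same 38 bases for Tyrp1. On both strands, 7 of 32851 windows of this length (0.0213%) hold it. Windows were given for 8 of the 11 pigment genes, and none of the other 6 holds it. The shorter CATGTG, which lies within it, occurs on either strand in 7 of the 8 windows, those of Rlbp1 and Rpe65 included, and in 12.25% of all. Of the 35 genes past the threshold 20 had a window, and 3 of these (15%) held CATGTG: Tyr, Tyrp1 and Akr1c14. That share is near the 12.25% of all windows. A match describes letters in the window, not binding.

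**Figure D3:**
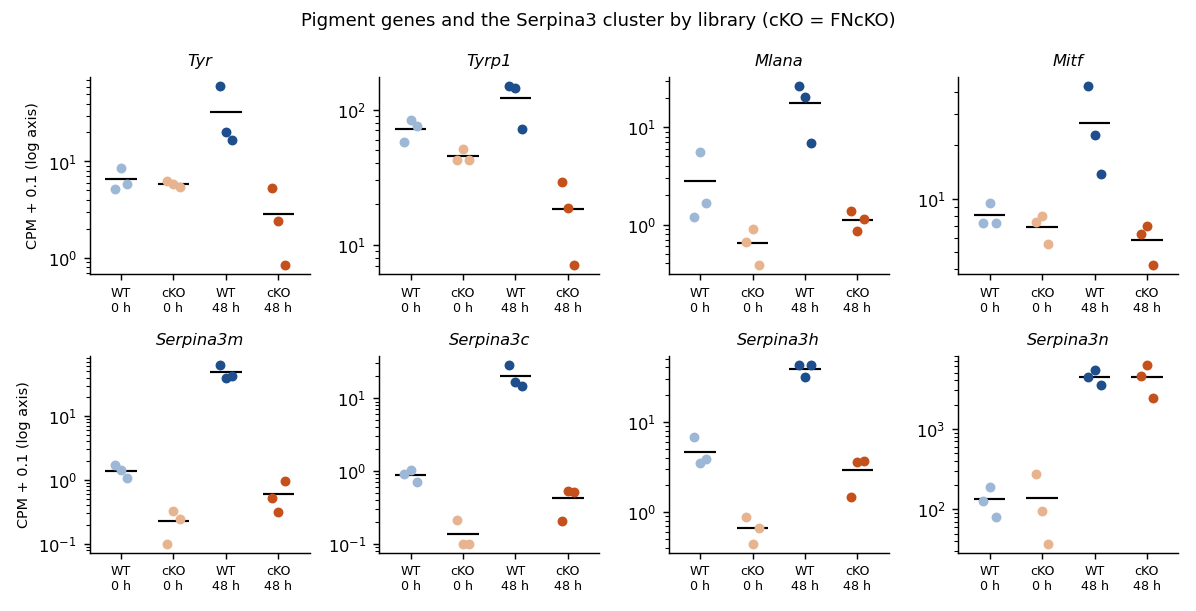
Levels of 4 pigment genes and 4 Serpina3 genes in every library, as CPM plus 0.1 on log axes, with 3 libraries in each of the 4 groups and a bar at the arithmetic mean. At 48 h Tyr, Tyrp1, Mlana, Mitf, Serpina3m, Serpina3c and Serpina3h lie lower in every FNcKO library (orange) than in any WT library (dark blue), while Serpina3n overlaps.

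Among the largest drops were those of the Serpina3 cluster, a row of related serine protease inhibitor genes of the acute phase response on chromosome 12, between 104112724 and 104414329. Of 11 members 7 were tested, and 4 fell in FNcKO, beside 0.199% of all tested genes: Serpina3m, Serpina3c, Serpina3f and Serpina3h. Serpina3m was at 63, 39.4 and 41.8 CPM in WT and 0.422, 0.218 and 0.845 in FNcKO (log2 −6.56, SE 0.44, BH-adjusted p = 1.48e-05). Serpina3f was at 56.2, 35.4 and 31.8 against 0.422, 0.327 and 0 (log2 −7.29, SE 0.66, BH-adjusted p = 0.000141). Serpina3c was at 28.5, 16.7 and 14.6 against 0.106, 0.436 and 0.423 (log2 −5.90, SE 0.53, BH-adjusted p = 0.000141). These 3 were close to absent in FNcKO: summed over the 3 libraries, Serpina3m had 1472 counts in WT against 14 in FNcKO, Serpina3f 1262 against 7 and Serpina3c 613 against 9. The ratios were 97.0 (95% exact binomial interval 57.6 to 178), 166 (80.5 to 415) and 62.8 (32.9 to 138), which cover counting error only. Serpina3h, a transcribed pseudogene in the GENCODE annotation, was at 41.9, 31.3 and 42.5 against 1.37, 3.49 and 3.59 CPM (log2 −3.77, SE 0.38, BH-adjusted p = 0.000342).

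Serpina3n, the member with nearly all counts of the cluster, did not follow. It was at 4415, 5333 and 3485 CPM in WT and 4512, 6225 and 2389 in FNcKO, a log2 difference of −0.01 (SE 0.59, adjusted p = 1). FNcKO held both the highest and the lowest library. The 4 members that fell also had fitted values below 0 at 0 h, where levels were low: Serpina3m was at 1.6, 1.32 and 0.963 CPM in WT and 0, 0.231 and 0.143 in FNcKO, and Serpina3h was at 6.62, 3.36 and 3.73 against 0.782, 0.346 and 0.573. Of these only Serpina3h passed at 0 h (adjusted p = 0.0283). Reads of such close relatives can be split between members or dropped, and the labels do not state how the counting treated them. Serpina3f and Serpina3g also overlap in the coordinates of the files.

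The 250 bases before the starts of Serpina3c and Serpina3n are shown because the genes parted in FNcKO while these stretches are nearly alike. Capitals mark bases that have no identical partner in the global alignment of the pair (RefSeq, GRCm38.p6).
Serpina3c (chr12:104153873-104154122, minus strand): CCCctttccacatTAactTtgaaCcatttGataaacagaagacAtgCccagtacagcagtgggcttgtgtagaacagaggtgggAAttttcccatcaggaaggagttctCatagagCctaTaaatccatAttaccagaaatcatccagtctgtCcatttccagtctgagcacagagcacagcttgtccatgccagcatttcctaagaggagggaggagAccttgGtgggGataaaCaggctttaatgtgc
Serpina3n (chr12:104406458-104406707, plus strand): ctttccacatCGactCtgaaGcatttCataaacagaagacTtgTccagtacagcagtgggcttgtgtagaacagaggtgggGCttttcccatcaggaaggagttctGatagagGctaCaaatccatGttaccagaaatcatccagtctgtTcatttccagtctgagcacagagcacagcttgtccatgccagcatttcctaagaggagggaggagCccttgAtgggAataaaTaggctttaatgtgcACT
Of 253 aligned columns 229 were identical (90.5%), 18 were mismatches and 6 were gaps. The window of Serpina3f, which fell too, was 62.55% identical to that of Serpina3n.

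Acute phase and complement genes gave 2 further calls that held without each library in turn. Lbp encodes the lipopolysaccharide-binding protein of the acute phase response. It was at 41.3, 40.9 and 23 CPM in WT and 3.38, 2.4 and 4.12 in FNcKO (log2 −3.40, SE 0.31, BH-adjusted p = 0.000141), and was lower at 0 h as well, at 5.81, 7.85 and 6.38 against 1.01, 0.807 and 1.29 (adjusted p = 0.00892). C2, a protease of the classical complement pathway, was at 25.5, 20.1 and 11.4 against 2.22, 1.09 and 0.951 CPM (log2 −3.73, SE 0.43, BH-adjusted p = 0.00129). At 0 h the C2 levels were 2.81, 3.77 and 3.01 against 1.56, 1.73 and 2.72. It was the only one of 13 complement genes past the threshold. Slfn4, a schlafen gene of myeloid cells, fell from 106, 46.2 and 27.9 to 9.18, 5.78 and 10.2 CPM (log2 −2.83, SE 0.43, BH-adjusted p = 0.0211) and lost its call with the leukocyte markers in the model (log2 −2.03, adjusted p = 0.0782) and without any one of the FNcKO libraries of 48 h.

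No member of the immune cell marker lists passed, although the medians of these lists lay below 0. Median log2 differences were −0.91 over 6 general leukocyte markers, −0.78 over 15 macrophage markers and −1.22 over 9 neutrophil markers. At an unadjusted p under 0.05, 3 leukocyte, 4 macrophage and 1 neutrophil marker were lower and none was higher, beside 3.4% of all tested genes lower. Of all tested genes, 5.25% did not overlap and were lower. No neutrophil or general leukocyte marker was without overlap. Of the macrophage markers 5 did not overlap, all lower: Csf1r, Ccr2, C1qa, C1qb and C1qc. C1qb, a chain of the first complement component and named after its values were seen, had the lowest p of them, with 17.7, 32 and 14.5 against 4.43, 6.66 and 8.45 CPM (log2 −1.71, adjusted p = 0.179). Ccr2, the chemokine receptor of recruited monocytes, was at 59.7, 28.8 and 17.6 CPM in WT and 5.7, 11.7 and 17.4 in FNcKO. The highest FNcKO library was almost level with the lowest WT library (adjusted p = 0.386). S100a9, a neutrophil protein, was at 62.6, 16.8 and 13.5 against 7.39, 6.33 and 24.3, with WT replicate 1 far above the rest. Of 33 cytokine genes and 26 interferon genes none passed. Cxcl1, a neutrophil chemokine, was at 31.1, 12 and 6.22 against 8.34, 6.98 and 24.6 CPM, Il6 at 5.04, 2.33 and 3.42 against 0.317, 2.73 and 4.86, and Irf7, a regulator of the interferon response, at 35.5, 52.2 and 27.9 against 35.5, 13 and 40.1, all with overlap.

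Metabolic and detoxifying enzymes went in both directions. Among 23 antioxidant genes 1 fell and 1 rose. Gsta3, a glutathione transferase, fell from 53.3, 30.3 and 14.5 CPM in WT to 5.59, 2.51 and 3.59 in FNcKO (log2 −3.06, SE 0.52, BH-adjusted p = 0.0366). Gpx3, the secreted glutathione peroxidase, was higher in FNcKO, at 173, 253 and 289 against 863, 743 and 483 (log2 1.55, SE 0.29, BH-adjusted p = 0.0498). Akr1c14, an aldo-keto reductase that acts on steroids, was near 1 CPM in every WT library and at 6.44, 8.95 and 8.35 in FNcKO (log2 3.25, SE 0.57, BH-adjusted p = 0.0366). Ucp2, an uncoupling protein of the mitochondrial inner membrane, fell from 351, 377 and 226 to 114, 143 and 134 CPM (log2 −1.29, SE 0.22, BH-adjusted p = 0.0296), and Papss2, which makes the sulfate donor for proteoglycans, from 101, 67.1 and 44.4 to 17.6, 18.7 and 24.6 (log2 −1.80, SE 0.27, BH-adjusted p = 0.0162). Each of these 5 calls was lost without FNcKO replicate 1 and again without FNcKO replicate 2 (adjusted p of up to 0.236 for Gpx3).

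Bst1 and Gm9199 were lower in FNcKO at both times. Bst1, an enzyme that makes cyclic ADP-ribose, was at 17, 25.4 and 22.6 CPM in WT and 5.49, 2.51 and 5.49 in FNcKO at 48 h (log2 −2.26, SE 0.30, BH-adjusted p = 0.00483), and at 134, 110.1 and 184 against 7.82, 8.3 and 11.6 at 0 h. Gm9199, a predicted gene, was at 15.1, 10.4 and 12 CPM in WT and 0, 0 and 0.211 in FNcKO (log2 −7.21, SE 0.66, BH-adjusted p = 0.000141). The FNcKO libraries held 2 counts in all against 382 in WT, a ratio of 176 with an exact binomial interval of 48.5 to 1460. Of a list of 7 strain-dependent genes 6 were tested, and 3 fell, Bst1, Gm9199 and Tyr, beside 0.199% of all tested genes. The other tested members did not pass. The list was made with earlier results of these data known, so the count is not independent of them. Nnt, whose loss marks one C57BL/6 substrain, was at 77.6, 73.9 and 63.4 CPM in WT and 75.8, 75.8 and 53.1 in FNcKO.

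Of the remaining genes that fell, several are regulators. Tbx20, a T-box transcription factor, was at 89.9, 35.6 and 22.2 CPM in WT and 5.91, 6.66 and 2.54 in FNcKO (log2 −3.29, SE 0.52, BH-adjusted p = 0.0271). Crabp2, which carries retinoic acid to its nuclear receptor, was at 91.7, 35.2 and 26.7 against 5.49, 6.77 and 6.44 (log2 −3.04, SE 0.51, BH-adjusted p = 0.0373), with less than 3 CPM in all 0 h libraries. Sfn encodes the 14-3-3 sigma protein of epithelia and was at 14.7, 16 and 11.7 against 0.950, 1.86 and 1.69 (log2 −3.23, SE 0.49, BH-adjusted p = 0.0181). Fstl4, a follistatin-like gene, was at 15.4, 4.27 and 3.42 against 0.528, 0.327 and 0 CPM, or 239 counts against 8. The membrane protein gene Mxra8 was at 131, 114 and 101 against 44, 41.4 and 22.9 (log2 −1.68, SE 0.26, BH-adjusted p = 0.0181), although at 0 h the FNcKO libraries had stood at 118, 92.8 and 143 and the WT libraries at 84.2, 60.1 and 96.5. Sytl2 and Syt17, both of the synaptotagmin type, had log2 differences of −3.06 and −2.08, and Agtrap, a binding partner of the angiotensin receptor, one of −0.88, the only call under 2-fold. Each of these 8 lost its call without at least WT replicate 1 or FNcKO replicate 2 of 48 h.

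Of the 6 genes higher in FNcKO, 4 are not enzymes of detoxification. Gm15645, in the GENCODE annotation a transcribed pseudogene overlapping Dchs1 and Mrpl17, which lie on the opposite strand, was at 1.05, 0.389 and 0.829 CPM in WT and 6.76, 10.04 and 16.6 in FNcKO (log2 3.86, SE 0.51, BH-adjusted p = 0.00483); whether the counting used strand is not stated in the labels. Ankrd34c, an ankyrin repeat gene, was at 0.0951, 0.0971 and 0.829 against 17.7, 8.29 and 3.17 (log2 4.82, SE 0.84, BH-adjusted p = 0.0442). Ece1, the enzyme that makes mature endothelin, was at 177, 178 and 207 against 551, 484 and 294 (log2 1.24, SE 0.23, BH-adjusted p = 0.0487). Jam2, a junctional adhesion molecule, was at 33.3, 32.2 and 33.2 against 96, 73.9 and 58.2 (log2 1.21, SE 0.22, BH-adjusted p = 0.0442). Its WT libraries were nearly equal, and at 0 h it stood at 179.5, 103 and 157 CPM in WT and 228, 255 and 202 in FNcKO. Ankrd34c, Ece1 and Jam2 lost their calls without WT replicate 1 or FNcKO replicate 2, among others.

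Lens identity, fiber and proliferation genes did not pass. None of 17 lens epithelium genes, 16 crystallins, 17 fiber genes or 32 cell cycle genes did. Of the lens epithelium genes, 2 did not overlap and were higher, and 1, Gja1, did not overlap and was lower. Of all tested genes, 9.74% did not overlap in either direction. Gja1 was at 816, 571 and 523 CPM in WT and 430, 345 and 341 in FNcKO (log2 −0.78, BH-adjusted p = 0.33). Foxe3, a transcription factor of lens epithelium, was at 9.98, 39 and 29.5 CPM in WT and 47.7, 42.6 and 5.07 in FNcKO. Cdh1, E-cadherin, was at 138, 217 and 181 against 346, 294 and 143. Cryab, a small heat shock crystallin, was at 2298, 8429 and 8452 against 15729, 11053 and 1893, and Bfsp2, a fiber cell filament protein, at 56.7, 181 and 113 against 240.1, 131 and 33.4. In Foxe3, Cryab and Bfsp2 the lowest WT library was replicate 1 and the lowest FNcKO library replicate 3. Of the cell cycle genes, 31 had a fitted value above 0 and the median was log2 0.28, but this turned to −0.11 without WT replicate 2. Mki67, present in dividing cells, was at 411, 86.1 and 366 CPM in WT and 251, 540.5 and 439 in FNcKO, WT replicate 2 being the low library. Egr1, an immediate early gene, was at 236, 214 and 164 against 151, 161 and 216, with overlap.

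**Figure D4:**
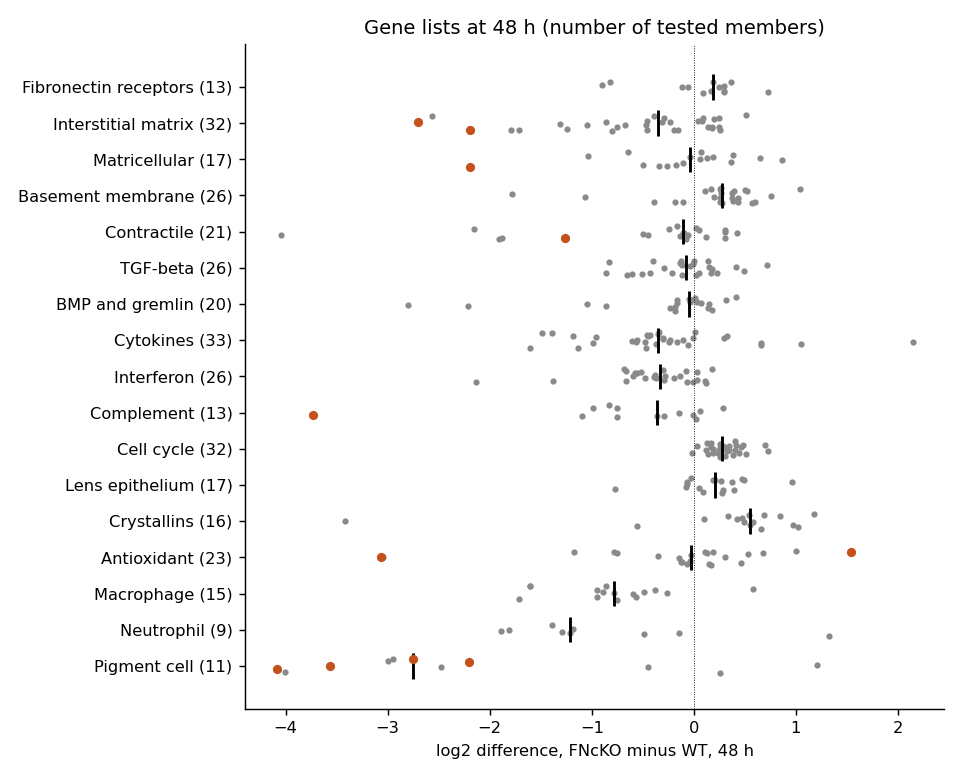
Fitted log2 differences at 48 h, FNcKO minus WT, of the tested members of 17 gene lists, 1 point per gene, with the number tested beside each name. Orange points passed the threshold and black bars are medians; the pigment list has the lowest median at −2.75 and 4 orange points, while most other medians lie close to 0.

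The same contrast at 0 h gave 21 genes past the threshold (0.144% of those tested). Both times shared 6 genes, all in the same direction: Lbp, Gm9199, Serpina3h and Bst1 lower, Ankrd34c and Ece1 higher. They were 17.14% of the calls at 48 h and 28.57% of those at 0 h. Of the 35 genes 30 had the same sign at 0 h and 5 the opposite. The difference of the genotype differences at 48 h and 0 h was tested as its own contrast. None of the 14560 genes passed with edgeR (735 at an unadjusted p under 0.05) or with limma voom, and 28 passed with DESeq2. The lowest adjusted p with edgeR was 0.185, shared by Serinc2 and Mxra8. The 35 genes were chosen by their difference at 48 h, which is 1 of the 2 terms of this contrast, so that their own values in it are not independent of the choice. Some edgeR alternatives called 1 or 2 genes: Serinc2 with the replicate block, Igfbp2 and Mxra8 with crystallin content in the model, Kcne4 without WT replicate 3 of 48 h, and Igfbp2 without FNcKO replicate 1 of 48 h, all with a difference below 0. Only Mxra8 of these is among the 35 genes.

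**Figure D5:**
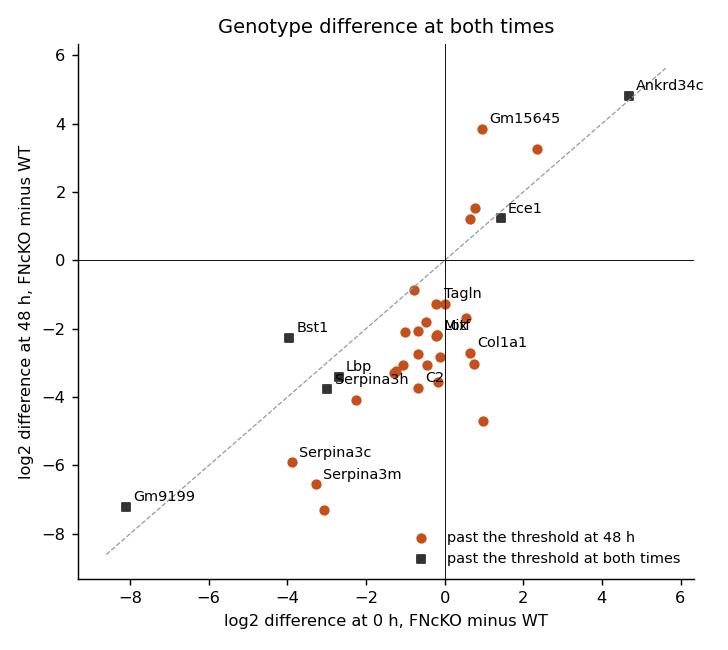
The 35 genes past the threshold at 48 h, with the fitted log2 difference at 0 h on the horizontal axis and at 48 h on the vertical axis, both FNcKO minus WT; the dashed line marks equal values. The 6 squares passed at both times, and Lox, Tagln and Mitf lie near 0 at 0 h.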

How the data were processed

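RNA was read from 12 libraries, 3 in each of 4 groups (WT 0 h, WT 48 h, FNcKO 0 h, FNcKO 48 h). Per the labels' protocols, RNA was purified with RNeasy columns and made into stranded TruSeq libraries read on a HiSeq instrument. The submitters' processing notes name FastQC, Trim Galore 0.4.4, TopHat2 2.1.0, bedtools 2.17, SAMtools 1.4, HTSeq 0.6.1p1, edgeR 3.16.5 and the mm10 build. Their roles, the annotation, the strand setting and the treatment of reads with several matches stand in none of the sources used here. The authors deposited raw counts per gene for 24147 genes in each library. The deposited RPKM values equal count per coding length and library total (largest relative difference 5.11e-15) and were used only for that check. Of the rows, 98 repeat a symbol and were kept apart. A combined table deposited with the series was not used: its column named for WT 0 h replicate 1 holds the values of the FNcKO 0 h replicate 1 file.

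Counts were analysed with edgeR 4.0.16 in R 4.3.3. Genes were kept by filterByExpr over the 4 groups (14560 genes), and libraries were scaled by TMM (factors 0.754 to 1.165). A robust quasi-likelihood fit with 4 group means used all 12 libraries, so that all groups share 1 estimate of the spread. The 48 h contrast, the 0 h contrast and their difference were tested, with p-values adjusted by Benjamini-Hochberg across the tested genes and a threshold of 0.05. Levels are TMM-scaled counts per 1e6 counts (CPM). The SE, an approximation, is the absolute log2 value over the root of the F statistic. No counts in a library still allow 3 (0.285 to 0.327 CPM in the 48 h libraries), and intervals and this limit cover counting error only. The fit was tested on simulated data.

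Named genes are first a set of fibronectin, matrix, lens and immune genes. The rule adds the 12 genes per direction with the largest difference. They were taken from genes past the threshold, without overlap and with a group mean of at least 2 CPM. It also adds every list member past the threshold and calls within 20 Mb of Fn1. Lists without a call give up to 3 members of the highest level. Other genes named were chosen after their values were seen, also where the text does not say so at the gene. Among them are Papss2, Mxra8, Slfn4, Ucp2, Syt17, Crabp2, Agtrap, Sytl2, Rlbp1, Rpe65, C1qa and C1qc. 1 gene that the rule names is not reported here. The members and lists were chosen with earlier results of these data known. Same-numbered 48 h libraries of the genotypes did not deviate together (correlations −0.474, −0.261 and −0.0945), and the reported fit did not pair them. With 3 libraries a group these values cannot exclude a shared batch, and the 0 h libraries were not checked in this way. Alternatives were other scaling, filters and tools (DESeq2 1.42.0, limma 3.58.1), the 48 h libraries alone, a replicate block, summed marker levels as covariates and each library left out. Omitting WT 0 h replicate 1 and the covariates of pigment markers and Xist were added after the data were seen. Sequences come from RefSeq (GRCm38.p6).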

Additional observations from a re-analysis of the deposited data

How the results depend on the processing

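The number of genes past the threshold at 48 h, 35 in the reported fit, was 7 with the 48 h libraries alone, 14 with leukocyte content, 17 with Xist and 0 with pigment content as covariate (330 at an unadjusted p under 0.05), 122 with DESeq2, which held all 35, 22 with limma voom and 23 without WT 0 h replicate 1. Without 1 library of 48 h it ran from 10 to 46. It was 31 with the replicate block and stayed within 1.5 times of 35 under the other planned settings, from 28 with total counts to 42 without the low count filter. At 0 h, 21 genes became 10 with total counts, 38 with crystallin, 6 with leukocyte and 7 with pigment content, 14 with the replicate block, 130 with DESeq2, 7 with limma voom and 7 without WT 0 h replicate 1, and 5 to 28 with 1 library of 48 h left out. The difference of the genotype differences had 0 calls, 1 with the replicate block, 2 with crystallin content, 28 with DESeq2 and 0 to 1 with 1 library left out.

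With pigment content as covariate the fitted values of Mitf and Sytl2 turned to log2 0.034 and 0.82. Over 35 called genes and 20 alternatives, 415 values kept direction and call, 283 kept the direction only and 2 turned; the cause was not tested. At 8368160 to 9257172 counts a library, genes near the limit of 3 counts cannot be compared.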
